A study of Homo sapiens with 6 samples.

Results

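Long intergenic non-coding RNAs, or lincRNAs, are transcripts that resemble messenger RNAs in being spliced and polyadenylated but carry no annotated protein, and whose genes lie between protein-coding genes or close beside them. Here the 150 lincRNAs with the highest levels in MOLT-3 cells were taken from 7617 eligible lincRNA genes in a table of 58735 genes. MOLT-3 is a long-established line of leukaemic human T-cell precursors, grown in culture. The members were chosen by level: the genes that the deposited table classes as lincRNA were ranked by their mean FPKM over all 6 libraries, and the first 150 were kept. FPKM is a read count scaled to the length of the gene and to the depth of the library, so it allows levels of different genes to be set side by side. The 12 lincRNAs LUNAR1, PVT1, AL645608.7, GAS5, ZFAS1 and those whose names begin with SNHG were left out of the ranking by name. LINC02001, at rank 18, stayed in by its name in the table, although RefSeq lists it under the symbol SNHG30. Since levels chose the members, all levels below are a description.

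The libraries came from cells given DMSO, with 3 libraries, or compound E, also with 3. DMSO is the solvent in which such inhibitors are dissolved, and compound E is an inhibitor of gamma-secretase, the protease that releases the active intracellular part of NOTCH receptors. Both groups were the same cell line with no further change stated, and no source used here gives the dose or time of compound E. The question of the study was which genes NOTCH1 regulates and whether such genes bear on the chemosensitivity of leukaemic T cells.

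Among the best studied lincRNAs, MALAT1 is a nuclear RNA of splicing speckles and NEAT1 is the scaffold of paraspeckles, which are nuclear bodies built from RNA and RNA-binding proteins. MIAT is a nuclear RNA that carries repeats of a splicing branch point motif and is bound by splicing factors. NORAD is mainly cytoplasmic and binds many copies of the Pumilio proteins, which otherwise bind and repress messenger RNAs. Other lincRNAs share a promoter region with a coding gene, host microRNAs in their introns, or have no known role.

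Stretches of these 4 RNAs are shown because they hold the elements for which the RNAs are known. They come from GENCODE 29 transcripts, are written 5′ to 3′ with T for U, and are followed from the first to the last base given. Capitals mark matches to the Pumilio element TGTANATA in NORAD and to ACTAAC in MIAT. In MALAT1 they mark a U-rich run and an A-rich tract, and in NEAT1 the same A-rich tract. U-rich runs and such tracts pair into a triple helix that protects the ends of MALAT1 and of the long NEAT1 form, neither of which ends in an ordinary poly(A) tail. Libraries were made with poly-T beads, and the part of each RNA that such beads capture was not measured.
NORAD-201, bases 1231 to 1530: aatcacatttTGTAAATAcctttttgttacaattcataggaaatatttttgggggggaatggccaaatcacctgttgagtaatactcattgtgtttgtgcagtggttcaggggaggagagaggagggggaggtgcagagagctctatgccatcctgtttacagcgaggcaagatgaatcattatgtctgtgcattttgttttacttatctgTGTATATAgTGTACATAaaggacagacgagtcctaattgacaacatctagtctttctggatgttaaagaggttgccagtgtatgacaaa
MIAT-218, bases 5078 to 5377: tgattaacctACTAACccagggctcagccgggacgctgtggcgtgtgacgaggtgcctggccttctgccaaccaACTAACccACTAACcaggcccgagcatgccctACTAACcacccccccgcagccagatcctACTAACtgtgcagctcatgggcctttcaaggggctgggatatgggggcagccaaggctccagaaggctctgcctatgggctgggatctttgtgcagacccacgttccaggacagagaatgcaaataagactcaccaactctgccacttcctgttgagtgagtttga
MALAT1-202, bases 8248 to 8367: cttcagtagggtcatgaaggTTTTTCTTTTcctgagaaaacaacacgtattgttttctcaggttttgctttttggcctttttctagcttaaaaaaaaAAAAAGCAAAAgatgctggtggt
NEAT1-202, bases 22624 to 22743: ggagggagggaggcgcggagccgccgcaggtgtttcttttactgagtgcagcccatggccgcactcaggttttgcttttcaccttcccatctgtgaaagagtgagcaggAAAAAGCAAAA
The NORAD transcript of 5339 bases held 15 Pumilio elements, the most of any member, and 3 of them stand in the window shown. NEAT1 followed with 6 in 22743 bases, and 21 of the 150 members held at least 1. The MIAT transcript of 10143 bases held 14 copies of ACTAAC, again the most, and 5 stand in the window. NEAT1 had 5 copies of it, and 21 members held at least 1. The A-rich tract occurred in 2 of the 150 members, MALAT1 and NEAT1, and in NEAT1 it formed the last bases of the transcript. These motifs were chosen after the values were seen and describe the sequences only.

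Library totals ran from 17316138 to 19845114 counts. The 150 members took 0.392% ± 0.000361 of the counts with DMSO (SD, n = 3) and 0.374% ± 0.00376 with compound E (SD, n = 3), and their summed level was 1482 ± 7.37 FPKM against 1474 ± 6.51 FPKM. The members held 65.2 to 66.3% of all lincRNA counts in each library. All 14 markers of T-lineage leukaemia were tested, 6 of them rose and 6 fell, and their summed level was 1210 to 1230 FPKM with DMSO and 1290 to 1310 FPKM with compound E. Summed over their lists, myeloid markers stayed at or under 0.461 FPKM, erythroid markers at or under 0.273 FPKM and epithelial markers at or under 0.339 FPKM in every library. Fibroblast markers lay between 0.876 and 1.26 FPKM, all of it COL1A1 (1.156 ± 0.0892 FPKM with DMSO and 0.976 ± 0.101 with compound E), and B cell markers between 8.82 and 9.85 FPKM, nearly all of it CD79A. Of the defining markers, MPO, HBB, MS4A1, COL1A2 and DCN were at 0 in every library. Nothing in the labels says that the 3 libraries of a group came from separate cultures, so the p-values measure the spread between these libraries, which may be technical.

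Levels fell steeply over the first few members and then slowly. NORAD was the highest, at 103, 104 and 103 FPKM with DMSO and 108, 111 and 108 FPKM with compound E. AL163932.1, a spliced lincRNA of 542 exonic bases on chromosome 14, stood beside it, at 97.5, 105 and 105 FPKM with DMSO and 105, 112 and 103 FPKM with compound E. These 2 did not differ beyond their spread and together made up 14.2% of the summed level, and the first 5 made up 22.6%. AC084033.3 came next at 46.5 ± 1.1 FPKM with DMSO (SD, n = 3), followed by AC084018.1 at 34.8 ± 2.08, LINC00106 at 32.2 ± 0.795 and MALAT1 at 31.5 ± 0.426. The mean and SD of LINC00106 overlapped those of both AC084018.1 and MALAT1, which did not overlap each other. LINC00106 lies in the pseudoautosomal region, where chromosomes X and Y carry the same sequence, and no source used here says how reads with several matches were counted. In all, 12 members had at least 20 FPKM, 38 had at least 10 FPKM and 56 had under 5 FPKM, with a median of 6.22 FPKM.

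The order of reads was another, because the members ranged from 127 to 22767 bases in length. NORAD, CASC15, MALAT1 and NEAT1 gave 39.2% of the members' counts, and NORAD alone gave 14.8%. Counts in single libraries ran from 8 to 11065, and 54 members had a mean under 100 counts. Of the members 42 were shorter than 600 bases. At the lower edge, AC027020.2 had 3.67 FPKM and AC083843.2 had 3.66 FPKM, while AP005482.2 at 3.66 FPKM and AC005332.4 at 3.63 FPKM were just outside.

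**Figure D1:**
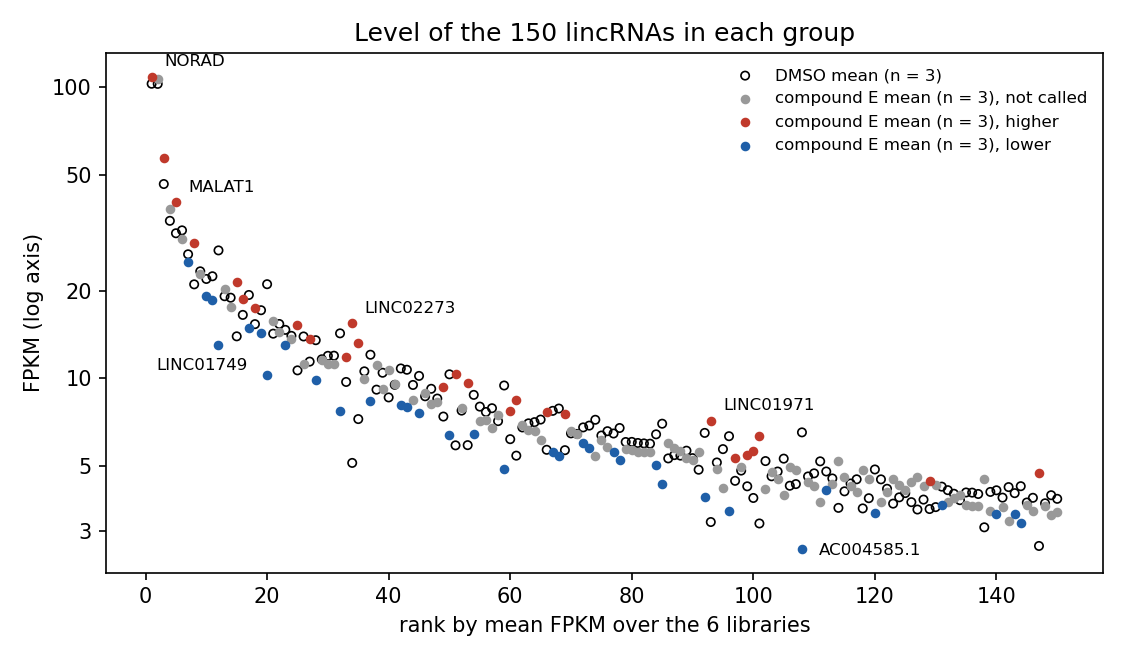
Level of each of the 150 lincRNAs in FPKM (vertical, log axis) against its rank by mean FPKM over the 6 libraries (horizontal). Open circles are DMSO means and filled circles compound E means (n = 3 each), red where the gene was called higher, blue where called lower and grey where not called; the first members lie near 100 FPKM and 56 members lie under 5 FPKM.

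The effect of compound E on each lincRNA was read from one fit of edgeR's quasi-likelihood test over all 16926 genes that passed the filter on low counts, with p-values adjusted by Benjamini-Hochberg over all of them. Genes with an adjusted p under 0.05 are called. All 150 members passed the filter. Of them 26 rose and 34 fell with compound E, and 90 were not called. That is 40% called, beside 38.3% of all tested genes, 17.3% higher beside 18.9%, and 22.7% lower beside 19.4%. The share of members called was thus near that of the whole table.

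Most changes were small. Of the 60 called members, 42 changed by less than 1.5-fold, 9 rose and 9 fell by at least that much, and 5 reached 2-fold, beside 3.83% of all genes called at that size. The 2 that rose at least 2-fold were LINC02273 and LINC01971, and the 3 that fell at least 2-fold were AC004585.1, LINC01749 and AL138899.1. The groups did not overlap in CPM, the count scaled to library size, for 75 members, or 50%, beside 46.8% of all genes: compound E lay above DMSO in 32 and below in 43. The median log2 fold change of the members was -0.08, beside -0.00336 for all genes, 0.00291 for protein-coding genes and -0.10 for the 666 other tested lincRNAs. Among these other lincRNAs 34 were called higher and 93 lower, which is 19.1%, at a median of 22 counts against 153 for the members.

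The members were then split by their number of reads. Among the 96 members with a mean of at least 100 counts 18 rose and 30 fell, and among the 54 with fewer counts 8 rose and 4 fell. That is 50% and 22.2% called, beside 38.3% of all tested genes. By rank, 28 of the first 50 members were called, 22 of the next 50 and 10 of the last 50 (56%, 44% and 20%). Their median counts were 388, 118 and 88.7. Standard errors of the log2 fold change ran from 0.0249 for NORAD to 0.381, and log2 fold changes of members that were not called ran from -0.46 to 0.54. By name, the 24 members with a name of their own had 5 called higher and 10 lower, the 36 with LINC numbers 7 and 8, and the 90 known only by a clone name 14 and 16. That is 62.5%, 41.7% and 33.3% called, at median counts of 493, 246 and 87.8. Kinds of name were not compared at equal counts, and no difference between them was tested.

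**Figure D2:**
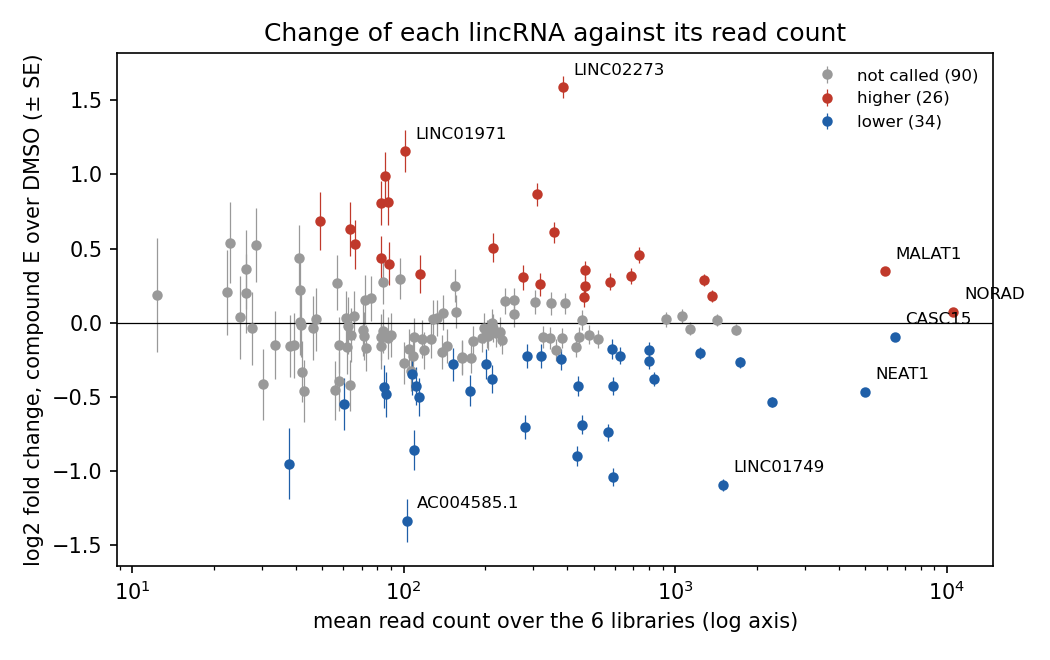
Log2 fold change of compound E over DMSO for each of the 150 lincRNAs (vertical, bars are the standard error) against its mean read count over the 6 libraries (horizontal, log axis). Red marks the 26 called higher, blue the 34 called lower and grey the 90 not called; error bars widen to the left, and NORAD, the most counted, lies close to 0.

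Of the nuclear lincRNAs among the members, MALAT1 rose and NEAT1 and MIAT fell. MALAT1 (ENSG00000251562, chromosome 11, 65497688 to 65506516, plus strand, GRCh38) had 31.4, 31.2 and 32.0 FPKM with DMSO and 40.3, 41.8 and 38.9 FPKM with compound E. All 3 compound E libraries lay above all 3 DMSO libraries, and the log2 fold change was 0.35 ± 0.0286 (SE), a 1.27-fold rise (adjusted p = 4.49e-13). NEAT1 lies on the same strand upstream of it (ENSG00000245532, chromosome 11, 65422774 to 65445540), and had 13.4, 13.7 and 13.4 FPKM with DMSO against 9.92, 9.60 and 10.015 FPKM with compound E. The groups were again apart, in the other direction, by a log2 fold change of -0.46 ± 0.0282 (adjusted p = 6.48e-17). These neighbours, with both genes inside 83.7 kb, were the only members within 200 kb of each other that were called in opposite directions. Both kept their calls under every alternative analysis that was run.

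MIAT (ENSG00000225783, chromosome 22, 26646428 to 26676475, plus strand) had 12.4, 11.7 and 12.1 FPKM with DMSO and 8.32, 8.35 and 8.38 FPKM with compound E. The compound E libraries differed from each other by far less than they differed from DMSO, and the log2 fold change was -0.54 ± 0.0343 (adjusted p = 3.22e-16). MIATNB, whose span overlaps the end of MIAT on the same strand, was not called (3.74 ± 0.257 against 3.66 ± 0.4995 FPKM, SD, n = 3, adjusted p = 0.832). MIATNB shares 7.76% of its exonic bases with MIAT.

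The value of NEAT1 pools all its annotated transcripts, so its long form was not measured apart. Proteins of paraspeckles were read beside NEAT1 from a list of 10, all tested. Of these 6 rose, 1 fell and 3 were not called, beside 18.9% higher and 19.4% lower over all tested genes. SFPQ, a core paraspeckle protein, went from 123 ± 0.996 to 144 ± 2.81 FPKM (SD, n = 3, log2 fold change 0.22, adjusted p = 8.55e-10). NONO, the partner of SFPQ, fell from 173 ± 1.30 to 166 ± 1.89 FPKM (log2 fold change -0.07, adjusted p = 0.0174). PSPC1 was at 24.1 FPKM with DMSO and 24.2 FPKM with compound E and was not called. Over the 10 proteins the log2 fold changes ran from -0.07 for NONO to 0.23 for HNRNPH3, all smaller in size than that of NEAT1.

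**Figure D3:**
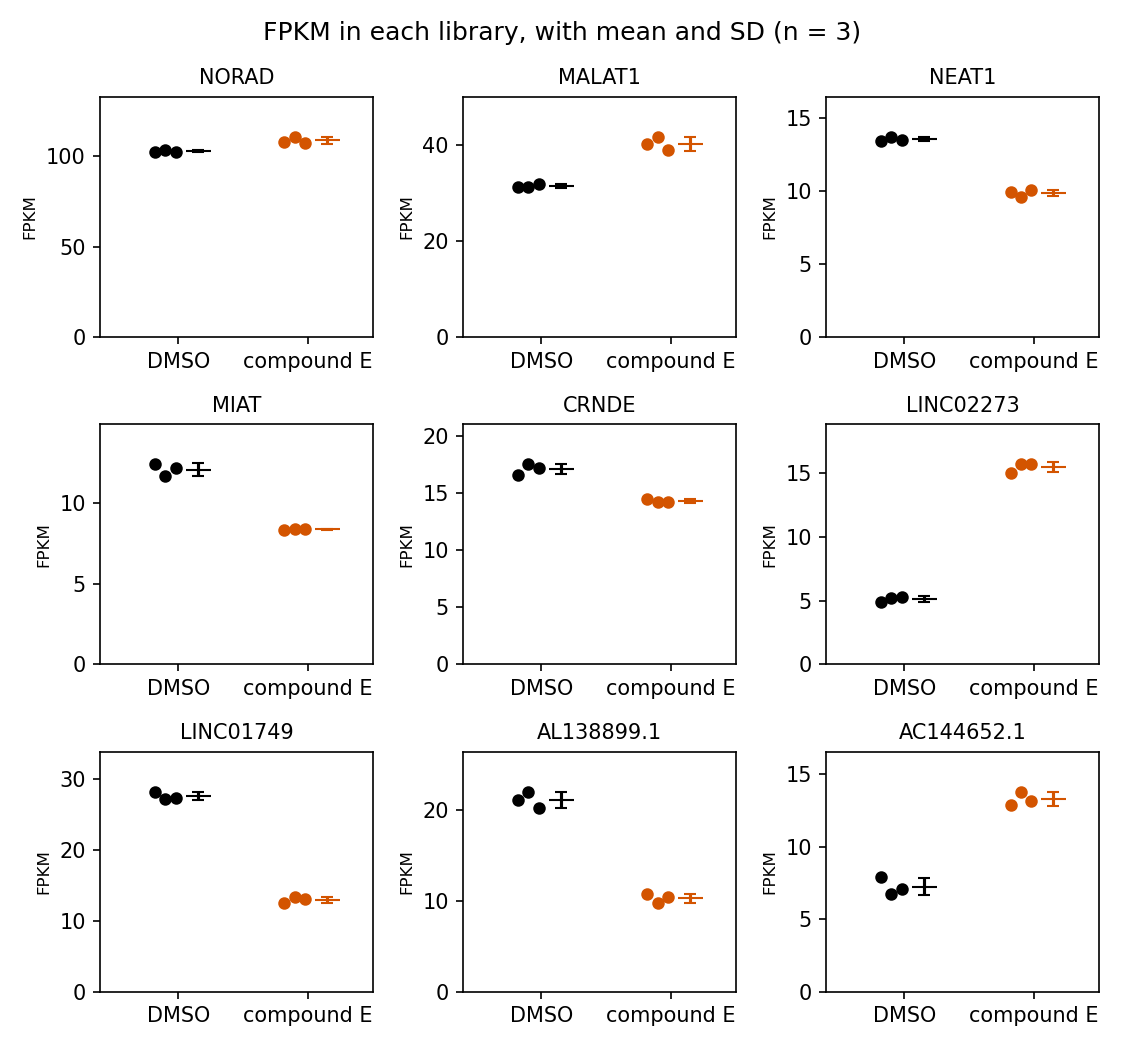
FPKM of 9 lincRNAs in each library (points), with the mean and SD of each group (bar, n = 3) and axes that start at 0. In all 9 panels the DMSO and compound E points do not overlap; NORAD differs by 1.05-fold and LINC02273 by 3.01-fold.

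Among the cytoplasmic and protein-binding lincRNAs, CRNDE and EPB41L4A-AS1 fell and NORAD rose slightly. NORAD (ENSG00000260032, chromosome 20, 36045622 to 36050960, minus strand, 1 exon) rose 1.05-fold, with all compound E libraries above all DMSO libraries (log2 fold change 0.07 ± 0.0249, adjusted p = 0.0161). This call was lost without DMSO replicate 3 (adjusted p = 0.0608) or without compound E replicate 2 (0.0625). Its protein partners PUM2 and RBMX were not called: PUM2 had 39.0 ± 0.503 FPKM with DMSO and 38.9 ± 1.49 FPKM with compound E, and RBMX 119 ± 2.75 and 117 ± 1.45 FPKM (SD, n = 3).

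CRNDE, a lincRNA that is high in colorectal tumours and leukaemias, had 16.6, 17.6 and 17.2 FPKM with DMSO and 14.5, 14.2 and 14.3 FPKM with compound E. The groups were apart, by a log2 fold change of -0.26 ± 0.0373 (adjusted p = 2.30e-07). It lies on chromosome 16 (54845189 to 54929189, minus strand), and its start is 1673 bases from that of IRX5, a homeobox gene that also fell (10.96 ± 1.26 to 8.74 ± 0.242 FPKM, log2 fold change -0.33, adjusted p = 0.000123). AC018553.1, a lincRNA of the same chromosome arm, fell from 4.86 ± 0.186 to 3.46 ± 0.225 FPKM, and its neighbour IRX3, of the same homeobox family, from 29.4 ± 0.415 to 23.2 ± 1.598 FPKM (log2 fold changes -0.50 and -0.35). This set of neighbours was chosen after its values were seen.

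EPB41L4A-AS1, which lies inside the span of the coding gene EPB41L4A on the opposite strand, had 10.8, 10.4 and 11.2 FPKM with DMSO and 7.45, 8.21 and 8.56 FPKM with compound E. The groups did not overlap (log2 fold change -0.43 ± 0.0592, adjusted p = 1.69e-07), but 49.6% of its exonic bases lie in exons of the coding gene. TP53TG1, a lincRNA induced by p53, had 6.28 to 7.03 FPKM with DMSO and 5.48 to 6.05 FPKM with compound E and was not called (log2 fold change -0.19 ± 0.125, adjusted p = 0.257). Enzymes and cofactors of nuclear RNA decay, which trim and degrade non-coding transcripts, were read from a list with 17 genes in the table. Of these 7 fell, 1 rose and 9 were not called, beside 19.4% lower and 18.9% higher over all tested genes. EXOSC5, a subunit of the RNA exosome, fell from 25.9 ± 0.796 to 19.5 ± 1.05 FPKM (log2 fold change -0.42, adjusted p = 8.34e-08), and ZC3H18, a cap-binding adaptor, rose from 13.1 ± 0.156 to 16.3 ± 1.02 FPKM (0.31, 6.40e-09).

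A pair of members are named as hosts of microRNAs, and both carry the hairpins in introns. MIR646HG (chromosome 20, 60087840 to 60527458, plus strand) had 4.18, 4.395 and 4.19 FPKM with DMSO and 5.56, 5.19 and 5.63 FPKM with compound E. It rose, with the groups apart (log2 fold change 0.35 ± 0.0633, adjusted p = 1.79e-05). MIR503HG on chromosome X had 3.98, 4.197 and 3.92 FPKM with DMSO and 3.47, 4.27 and 4.67 FPKM with compound E. Its compound E libraries lay on both sides of DMSO, and it was not called (log2 fold change 0.03 ± 0.124, adjusted p = 0.886), with the sign turned to -0.07 without compound E replicate 3. The mature microRNAs were not measured in these libraries, and are shown for their seeds, bases 2 to 8, in capitals, as RefSeq gives them (GRCh38.p14).
hsa-miR-646: aAGCAGCUgccucugaggc
hsa-miR-4533: uGGAAGGAgguugccggacgcu
hsa-miR-503-5p: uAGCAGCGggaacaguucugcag
hsa-miR-503-3p: gGGGUAUUguuuccgcugccagg
No 2 of these 4 share the whole seed. In the list of microRNA processing genes 3 of 10 rose, 1 fell and 6 were not called, so that 4 of 10 were called beside 38.3% of all tested genes. DGCR8, the RNA-binding partner of DROSHA, went from 12.6 ± 0.379 to 14.8 ± 0.0841 FPKM (log2 fold change 0.23, adjusted p = 2.51e-06), while DROSHA was at 11.6 and 11.5 FPKM and DICER1 at 12.7 and 12.7 FPKM, neither called. LINC00426, the 1 member from a list of lymphoid lincRNAs, had 4.26, 3.61 and 3.83 FPKM with DMSO and 4.29, 4.43 and 4.24 FPKM with compound E, and was not called (adjusted p = 0.170).

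Among the 15 highest members, 5 rose, 4 fell and 6 were not called, beside 18.9% higher and 19.4% lower over all tested genes. AC084033.3 rose from 47.0, 47.3 and 45.3 FPKM to 58.3, 55.7 and 57.3 FPKM, with the groups apart (log2 fold change 0.29 ± 0.0416, adjusted p = 4.02e-07). ATP23, a coding gene whose span it overlaps on the other strand, also rose (5.10 ± 0.171 to 6.74 ± 0.388 FPKM, SD, n = 3, log2 fold change 0.39). AP000345.2 rose from 14.0, 14.6 and 13.3 FPKM to 21.2, 21.5 and 21.5 FPKM, a 1.52-fold difference between groups that were again apart (log2 fold change 0.61 ± 0.0715, adjusted p = 4.66e-09). CASC15, which starts 72004 bases from the transcription factor gene SOX4, fell from 26.7 ± 0.234 to 25.1 ± 0.412 FPKM (log2 fold change -0.09 ± 0.0266, adjusted p = 0.00495). SOX4 itself was not called, with a log2 fold change of -0.01. LINC01163 fell from 22.0 ± 0.202 to 19.2 ± 0.551 FPKM (log2 fold change -0.20, adjusted p = 0.000132). AC245060.2 had 22.4 ± 1.63 FPKM with DMSO and 18.6 ± 1.78 FPKM with compound E (adjusted p = 0.0251), and lost its call without DMSO replicate 1 (0.0534) or 3 (0.132) and without compound E replicate 2 (0.132) or 3 (0.0641). Its call was also lost with DESeq2 and with limma on log2(FPKM + 1) without a filter. AL163932.1, AC084018.1, LINC00106, LINC00342, AC008764.2 and AC073370.1 were not called, with log2 fold changes from -0.12 for AC073370.1 to 0.13 for AC084018.1.

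The largest rise was that of LINC02273, an RNA of 2011 exonic bases on chromosome 4 (ENSG00000245954, 152100754 to 152104720, plus strand). It had 4.86, 5.24 and 5.26 FPKM with DMSO and 15.04, 15.7 and 15.7 FPKM with compound E, with no overlap. The log2 fold change was 1.59 ± 0.0728, a 3.01-fold rise (adjusted p = 9.36e-21). Its nearest coding gene by start, GATB, lies 339731 bases away and was not called. LINC01971 (ENSG00000278200, chromosome 17, 81480523 to 81481570, minus strand, 1 exon) had 3.14, 2.72 and 3.77 FPKM with DMSO and 7.53, 6.94 and 7.02 FPKM with compound E. It rose 2.23-fold, with the groups apart (log2 fold change 1.158 ± 0.143, adjusted p = 1.41e-08).

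AC144652.1 (ENSG00000273117, chromosome 7, 155295918 to 155297541, minus strand) had 7.88, 6.77 and 7.08 FPKM with DMSO and 12.9, 13.8 and 13.2 FPKM with compound E, a 1.82-fold rise with the groups apart (adjusted p = 8.70e-12). AC074135.1 rose from 3.72, 2.48 and 3.31 FPKM to 5.23, 6.55 and 7.17 FPKM (adjusted p = 3.50e-06), and 18.4% of its exonic bases lie in exons of the zinc finger gene ZNF730. LINC01315, AL034374.1 and AC132807.2 rose 1.76-fold, 1.75-fold and 1.61-fold (adjusted p = 5.81e-05, 3.20e-05 and 0.00450). AC026401.3 went from 10.7 ± 0.913 to 15.3 ± 0.648 FPKM (adjusted p = 3.41e-05). It lies inside the span of the coding gene NDE1 on the same strand, outside its exons. NDE1 also rose (log2 fold change 0.31, adjusted p = 2.87e-07), and reads from its introns could be counted to AC026401.3. Of the weaker rises among the 15 largest, AC010719.1 lost its call without compound E replicate 2 (adjusted p = 0.0519). LINC01221 lost it without compound E replicate 1 (0.0559) or DMSO replicate 1 (0.0826) or 2 (0.0702). AC146944.4 lost it without compound E replicate 1 (0.106) or 2 (0.0640) or DMSO replicate 2 (0.103) or 3 (0.0945). With DESeq2 the calls of AC010719.1, LINC01221 and AC146944.4 were lost as well, and that of AC146944.4 also with limma on log2(FPKM + 1) without a filter.

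The largest fall was that of AC004585.1, a spliced lincRNA of chromosome 17 (ENSG00000266088, 40517026 to 40527002, plus strand). It had 7.25, 5.67 and 6.64 FPKM with DMSO and 2.86, 2.53 and 2.39 FPKM with compound E, a 2.52-fold fall with the groups apart (log2 fold change -1.34 ± 0.145, adjusted p = 6.79e-10). LINC01749 (ENSG00000272259, chromosome 20, 63009383 to 63085071, plus strand) had 28.2, 27.1 and 27.3 FPKM with DMSO and 12.5, 13.3 and 13.1 FPKM with compound E. It had the smallest adjusted p among the falls (8.06e-24), at a 2.13-fold difference and with no overlap. AL138899.1 (ENSG00000176320, chromosome 1, 158197922 to 158203877, minus strand) had 21.0, 22.0 and 20.1 FPKM with DMSO and 10.7, 9.73 and 10.5 FPKM with compound E. These groups were apart as well, by 2.06-fold (log2 fold change -1.04 ± 0.0597, adjusted p = 1.13e-17).

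The coding genes beside the strongest falls moved both ways, and these pairs were chosen after their values were seen. CD1D, which presents lipid antigens to T cells, has its start 23930 bases from that of AL138899.1 and rose from 16.8 ± 0.807 to 27.8 ± 1.03 FPKM (SD, n = 3, log2 fold change 0.72, adjusted p = 2.23e-15). AC109826.1 fell from 14.3, 14.1 and 14.4 FPKM to 7.92, 7.5025 and 7.66 FPKM, with the groups apart (log2 fold change -0.90 ± 0.0656, adjusted p = 1.68e-14). MGAT4A, a glycosyltransferase gene that starts 41794 bases from it, fell from 26.5 ± 0.506 to 14.1 ± 1.07 FPKM (log2 fold change -0.92, adjusted p = 5.74e-23). AC015813.1 fell 1.67-fold and AC005261.1 1.61-fold (adjusted p = 1.78e-13 and 1.79e-11). AC123912.4 fell 1.81-fold (adjusted p = 2.18e-06). AC011257.1, with 9.45 ± 1.93 and 4.89 ± 1.79 FPKM, fell 1.93-fold with the widest spread of these (SE 0.241, adjusted p = 0.00156), and its call was lost with limma on log2(FPKM + 1) without a filter (0.104). AC079610.2 lost its call without DMSO replicate 2 (adjusted p = 0.145), and AC008537.2 without DMSO replicate 1 (0.0508). Both calls were also lost with DESeq2, and that of AC079610.2 with limma on log2(FPKM + 1) without a filter. The 19 called members that the naming rule did not take comprised 6 rises with log2 fold changes of 0.17 to 0.33 and 13 falls with -0.43 to -0.18.

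Promoter windows of RefSeq (GRCh38.p14), from 250 bases before a start to 50 after it, were matched for 40 of the 150 members. Shown are those of the highest member, NORAD, of the 2 members that rose most and of INSIG1, which faces AC144652.1, with matches to the E-box CACGTG in capitals. An E-box of these letters is bound by the MYC, MAX, USF and related factors.
NORAD, chr20:36050911-36051210, minus strand: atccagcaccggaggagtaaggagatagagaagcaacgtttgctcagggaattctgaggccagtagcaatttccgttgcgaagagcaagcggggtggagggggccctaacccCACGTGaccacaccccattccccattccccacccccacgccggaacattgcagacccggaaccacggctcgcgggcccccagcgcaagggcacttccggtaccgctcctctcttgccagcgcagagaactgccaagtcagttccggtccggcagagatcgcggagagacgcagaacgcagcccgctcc
LINC02273, chr4:152100503-152100802, plus strand: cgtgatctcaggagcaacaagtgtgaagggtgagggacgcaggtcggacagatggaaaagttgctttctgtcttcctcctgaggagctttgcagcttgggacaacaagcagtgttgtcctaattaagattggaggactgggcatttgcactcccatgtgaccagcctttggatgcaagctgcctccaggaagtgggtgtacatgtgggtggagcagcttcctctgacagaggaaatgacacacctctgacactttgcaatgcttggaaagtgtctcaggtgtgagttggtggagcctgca
LINC01971, chr17:81481417-81481716, minus strand: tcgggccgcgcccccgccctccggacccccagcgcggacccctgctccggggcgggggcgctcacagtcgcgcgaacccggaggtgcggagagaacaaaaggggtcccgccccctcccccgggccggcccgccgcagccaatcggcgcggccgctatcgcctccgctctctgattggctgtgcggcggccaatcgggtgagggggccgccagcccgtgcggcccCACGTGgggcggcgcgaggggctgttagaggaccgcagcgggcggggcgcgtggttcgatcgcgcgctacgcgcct
INSIG1, chr7:155297628-155297927, plus strand: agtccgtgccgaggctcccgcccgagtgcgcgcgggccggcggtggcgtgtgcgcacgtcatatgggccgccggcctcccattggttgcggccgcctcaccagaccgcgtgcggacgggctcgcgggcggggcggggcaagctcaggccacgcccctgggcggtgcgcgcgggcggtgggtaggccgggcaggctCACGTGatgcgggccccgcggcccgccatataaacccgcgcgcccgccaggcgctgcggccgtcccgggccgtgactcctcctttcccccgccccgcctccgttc
The E-box stood in 5 of the 40 windows, or 12.5%, beside 7.26% of the 35116 windows of the table. It stood in 4 of the 8 windows of members called higher (NORAD, LINC02001, LINC01971 and LINC01315), in 0 of 9 of members called lower and in 1 of 23 of those not called. The calls of NORAD and LINC02001 were lost in some alternative analyses, and a link between E-box and call was not tested. The window of LINC02273 held none of the 4 motifs searched. GTGGGAA, the motif of RBPJ, the DNA-binding partner of NOTCH, was searched on both strands and stood in 4 of 40 windows, or 10%, beside 6.25% of all windows. All 4 belonged to members that were not called, with 0 of 8 among those called higher and 0 of 9 among those called lower. The CRE motif TGACGTCA stood in 1 of 40 windows beside 1.85% of all, and the ATF4 motif TGATGNAA, on both strands, in 1 of 40 beside 3.62%. With 110 members unmatched, these counts describe only the windows at hand, and a match is not a bound site.

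Members that lie close together were grouped where their starts were within 200 kb of one another. This gave 16 groups with 36 members, of which 3 held at least 2 called members. NEAT1 and MALAT1 formed the group with opposite calls. In the other two all called members went one way. On chromosome 20, between 62928621 and 63104386, LINC01749, LINC00029, LINC01056 and HAR1A fell and AL117379.1 was not called. LINC00029 had 10.1, 10.7 and 10.2 FPKM with DMSO and 6.57, 6.19 and 6.36 FPKM with compound E, apart by 1.63-fold (adjusted p = 2.63e-09). LINC01056 had 9.29, 8.54 and 8.48 FPKM against 6.57, 6.83 and 5.87 FPKM, also apart (1.37-fold, adjusted p = 0.000430). HAR1A, an RNA known from a region that changed fast in human evolution, had 6.91, 6.74 and 6.60 FPKM against 4.89, 5.42 and 5.37 FPKM (1.30-fold, adjusted p = 0.00124). LINC00029 and LINC01056 lie inside the span of LINC01749 but share 0 exonic bases with it. LINC01056 is on the same strand, so reads from introns of LINC01749 could be counted to it. If reads were not assigned by strand, the same could hold for LINC00029, on the other strand. How far these falls are separate was not tested.

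Of the coding genes in and around that group, BHLHE23, a helix-loop-helix transcription factor gene whose start is 2348 bases from that of LINC01749, fell from 41.7 ± 4.79 to 22.1 ± 1.153 FPKM (SD, n = 3, log2 fold change -0.93 ± 0.0658, adjusted p = 7.48e-15). GID8 rose from 33.8 ± 0.409 to 36.7 ± 1.08 FPKM (0.11, 0.00450), and DIDO1 (24.5 ± 0.164 to 25.8 ± 0.256 FPKM) and SLC17A9 (2.53 ± 0.110 to 2.21 ± 0.125 FPKM) were not called (adjusted p = 0.0546 and 0.0602).

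On chromosome 17, between 81345476 and 81481570, all 3 members rose. AC110285.2 had 21.8, 21.8 and 19.6 FPKM with DMSO and 29.1, 28.9 and 29.3 FPKM with compound E, with the groups apart (log2 fold change 0.46 ± 0.0533, adjusted p = 3.62e-09). AC110285.6 rose from 4.399, 5.70 and 6.18 FPKM to 9.97, 6.62 and 8.62 FPKM (log2 fold change 0.63 ± 0.182, adjusted p = 0.00528). Its call was lost without compound E replicate 1 (0.0559) and with limma on log2(FPKM + 1) without a filter. LINC01971 was the third. The coding genes ACTG1, BAHCC1, SLC38A10 and TMEM105 rose too, while FSCN2 was not called. TMEM105 was very low, at 0.0954 ± 0.0615 FPKM with DMSO and 0.481 ± 0.035 with compound E (log2 fold change 2.34 ± 0.346). BAHCC1, a chromatin reader gene that starts 5219 bases from AC110285.2, went from 37.1 ± 0.424 to 78.0 ± 3.08 FPKM (log2 fold change 1.07 ± 0.0265, adjusted p = 1.74e-29). ACTG1, cytoplasmic gamma actin, went from 1742 ± 23.5 to 1875 ± 21.4 FPKM (log2 fold change 0.10, adjusted p = 0.000103).

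**Figure D4:**
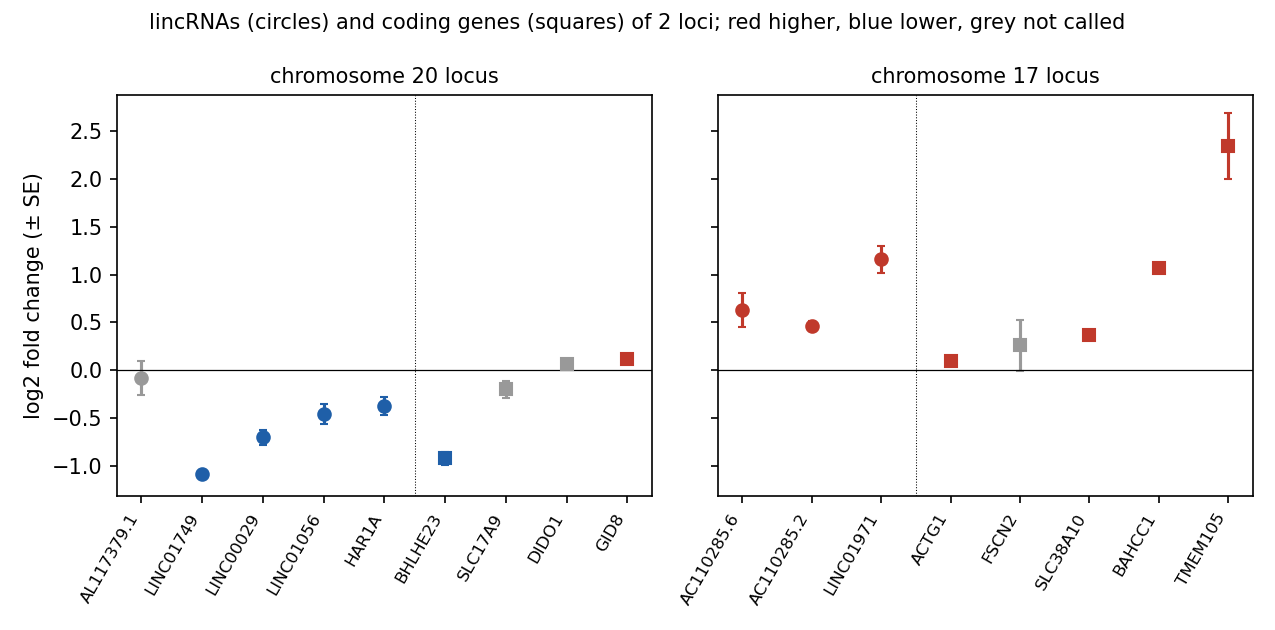
Log2 fold change of compound E over DMSO (vertical, bars are the standard error) for lincRNAs (circles) and tested protein-coding genes (squares) of the chromosome 20 and chromosome 17 groups; the dotted line parts the 2 kinds. On chromosome 20, 4 of 5 lincRNAs and BHLHE23 are below 0 and called, and on chromosome 17 all 3 lincRNAs and 4 of 5 coding genes are above 0 and called. The highest point, TMEM105, is a gene of very low level (0.481 FPKM with compound E).

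Of the members, 27 formed a divergent pair with a coding gene, which means that the starts were within 1000 bases of each other on opposite strands and pointed apart. That is 18%, beside 16.1% of the other tested lincRNAs. In 26 of these pairs both genes were tested, and 14 had log2 fold changes of the same sign. Of the 26 coding partners 13 were called, beside 44.7% of all tested protein-coding genes. Of the lincRNAs in these pairs 6 were called, beside 40% of all members. In 4 pairs both genes were called, 3 in the same direction. AC144652.1 and INSIG1, whose protein holds back the sterol-sensing activators of lipid synthesis, both rose, INSIG1 from 80.9 ± 0.828 to 115 ± 1.31 FPKM (SD, n = 3, log2 fold change 0.50, adjusted p = 7.33e-19). The starts of these 2 genes are 235 bases apart, and the INSIG1 window printed above begins 87 bases from the start of the lincRNA.

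LINC01089 and SETD1B, a histone methyltransferase gene, rose together, the lincRNA from 16.5 ± 0.644 to 18.8 ± 0.233 FPKM (adjusted p = 0.000514) and SETD1B from 32.3 ± 0.177 to 44.1 ± 2.21 FPKM (2.42e-15). LINC01089 also overlaps AC084018.1 on the other strand, over 36.7% of the exonic bases of AC084018.1, and no source used here says whether reads were assigned by strand. PAXIP1-AS1 went the other way from PAXIP1, a gene of DNA repair, at 14.7 ± 1.61 and 13.02 ± 1.01 against 9.37 ± 0.113 and 10.5 ± 0.405 FPKM. The groups of PAXIP1-AS1 overlapped, and its adjusted p of 0.0352 was above 0.05 without DMSO replicate 2 (0.0821) or 3 (0.320) or without compound E replicate 1 (0.0544) or 2 (0.221). The call of PAXIP1-AS1 was lost in 9 of 16 alternatives, among them DESeq2, limma-voom and the 3 limma fits on FPKM.

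In the remaining pairs with a called lincRNA the coding partner was not called: AL034374.1 rose 1.75-fold beside ELOVL5, a fatty acid elongase gene with a log2 fold change of -0.05, and AC079610.2 fell 1.40-fold beside IKZF2, the gene of the transcription factor Helios, with 0.003. Over the 26 pairs the log2 fold changes of the 2 genes had a Pearson r of 0.333 and a Spearman rho of 0.0988 across genes, which are not independent replicates and share the same 6 libraries. Without AC144652.1 and INSIG1 these were 0.111 and -0.01. Over 107 such pairs of the other tested lincRNAs they were 0.182 and 0.178, with 57 of the same sign. Beyond divergent pairs, 32 members and their nearest coding gene by start were both called, 20 in the same direction and 12 in opposite ones. For the other lincRNAs these counts were 58, 46 and 12. The pairs are not all separate, since LINC01749, LINC00029, LINC01056 and HAR1A share BHLHE23 as nearest coding gene. Distance was not limited, and the starts of AC132807.2 and TBC1D5, for instance, lie 431591 bases apart. For 24 of the 60 called members the nearest coding gene was not called or not tested, beside 61 of 127 called among the other lincRNAs. Of all tested protein-coding genes 44.7% were called.

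**Figure D5:**
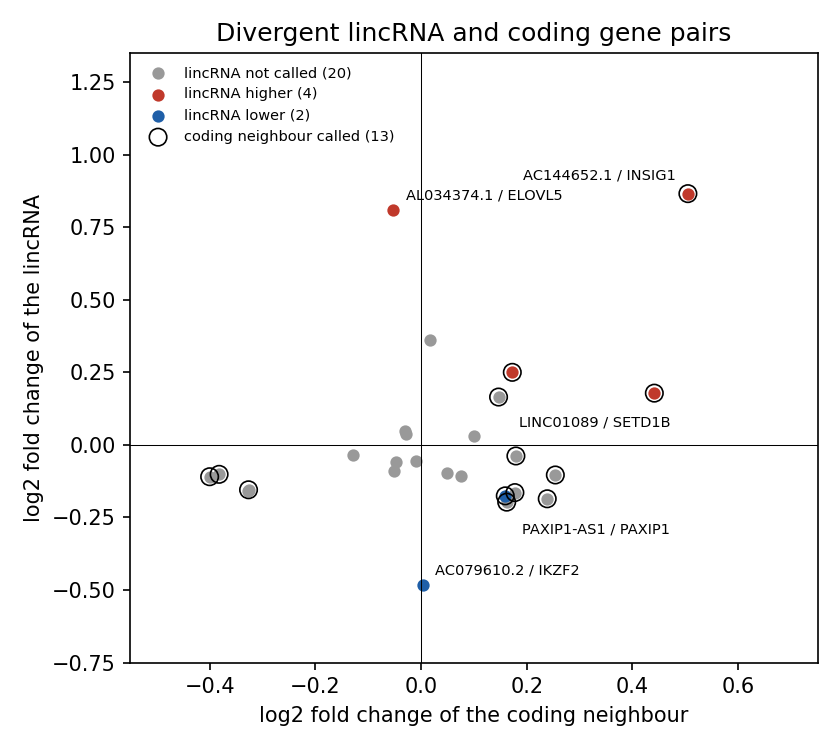
Log2 fold change of each lincRNA (vertical) against that of its divergent protein-coding partner (horizontal) for the 26 pairs in which both were tested. Colour gives the call of the lincRNA and a ring marks the 13 called partners; the pair of AC144652.1 and INSIG1 lies at the upper right, and most lincRNAs with a called partner lie between -0.25 and 0.25.

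By structure, 41 members, or 27.3%, had a single exon in every annotated transcript, beside 32.3% of the other tested lincRNAs. The span of 30 members overlapped that of a coding gene, on the same strand in 12 and on the opposite strand in 19, and 11 shared exonic bases with a coding gene. None shared more than 49.6% of its exonic bases, the value for EPB41L4A-AS1. The 120 members with no such overlap gave 19 rises and 26 falls, and the 30 with an overlap gave 7 and 8. Over all tested genes 18.9% were called higher and 19.4% lower. The 11 with shared exonic bases, among them LINC01089 (41.7%), C2orf48 (8.9%) and AC060780.1 (6.9%), gave 3 rises and 4 falls. Their values are uncertain where reads could have been assigned to either gene. In the 12 with an overlap on the same strand, reads from introns of the coding gene could also have been counted. If reads were not assigned by strand, which no source used here tells, this could hold for the 19 on the opposite strand too.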

How the data were processed

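Poly-T bead selected RNA of MOLT-3 cells was sequenced from NEBNext Ultra libraries, per the labels' protocols. The submitters' processing notes name HISAT2 2.0.5, featureCounts 1.5.0-p3 and DESeq2 1.16.1. Genome build, annotation, strand and multi-match settings were not given in the sources used here. One table deposited by the authors holds whole-number read counts per gene, not normalised, and a second deposited table holds FPKM, in which each value is the count over the gene's length and over a depth scaled per library. Totals of 17316138 to 19845114 counts set the precision. All 58735 gene positions equal those of GENCODE 29 (GRCh38), which gave exons, transcripts and neighbours, and RefSeq tables (GRCh38.p14) gave promoters and microRNAs.

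Counts of compound E and DMSO libraries, grouped by the labels, were compared in R 4.3.3 with edgeR 4.0.16 (filterByExpr, TMM, quasi-likelihood F-test, treatment as the only term, Benjamini-Hochberg over 16926 genes, called under 0.05). The standard error is the size of the log2 fold change over the root of F. The fit was tested on simulated data. Alternatives used DESeq2 1.42.0, limma 3.58.1 on voom and log2 FPKM values, other scalings, filters and rankings, each library left out, and a replicate block. Named lincRNAs are the 15 highest, the 15 largest called rises and falls with at least 1 CPM and groups apart, textbook lincRNAs, divergent pairs with both genes called, and the edge of the ranking. The members and lists were chosen with earlier results of these data known. Members outside the rule, RNA elements and neighbours described as such were chosen after their values were seen. One Y-linked member is counted but not shown. Some other genes that the counts include are not reported here.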

Additional observations from a re-analysis of the deposited data

How the results depend on the processing

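No called member changed its direction under any alternative that tested it, and 30 of the 41 named members that were called kept their call in each such alternative. Of these 30, AC132807.2 was not tested under the filter of at least 5 CPM in 3 libraries. The 26 rises and 34 falls stayed within 1.5-fold of these counts except that the first 75 members alone gave 21 falls. DESeq2 gave 20 rises and 23 falls, all among the 60 calls, and limma on log2(FPKM + 1) of all genes, without a filter, 20 and 24. That last fit called 4002 genes of the whole table, against 6484. Ranking by CPM instead of FPKM gave 21 rises and 43 falls. The median log2 fold change of -0.0835 moved by more than its SD over the compound E libraries, 0.00681, under some settings: -0.11 with at least 5 CPM in 3 libraries, which left 100 members, -0.076 with DESeq2, -0.0611 on log2(FPKM + 1) with and without a filter, -0.0702 on log2(FPKM + 0.1), and -0.0968 over members with no coding overlap. Leaving out 1 library at a time gave 21 to 25 rises, 28 to 34 falls and a median of -0.0881 to -0.0709. Without compound E replicate 3, MIR503HG turned from 0.0284 to -0.068, not called either way, and over all left-out libraries it ran from -0.068 to 0.141. A replicate block gave 26 rises, 34 falls and a median of -0.0816. Same-numbered libraries did not deviate together (correlations 0.0101, -0.0211 and -0.00529), and no library of one group correlated best with its own number in the other. No pairing by number was thus seen. These correlations weighed all tested genes alike, also those with few counts, so a shared batch could be missed. Members with under 100 counts, 54 in all, are limited most by depth.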

Other observations

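Among the called lincRNAs that the naming rule did not take, several at high levels may be followed up, and they were chosen after their values were seen. LINC01215, at rank 17, fell from 19.3 ± 0.653 FPKM with DMSO to 14.9 ± 0.508 FPKM with compound E (SD, n = 3, log2 fold change -0.38, edgeR adjusted p = 6.22e-08). LINC01238 rose from 9.72 ± 0.201 to 11.8 ± 0.324 FPKM (log2 fold change 0.28, adjusted p = 0.000127). C2orf48 fell from 10.7 ± 0.403 to 7.996 ± 0.321 FPKM (-0.43, 1.27e-06), and C22orf34 from 6.88 ± 0.150 to 5.78 ± 0.353 FPKM (-0.26, 0.000101). In these 4 the groups did not overlap. LINC02001, which RefSeq names as a small nucleolar RNA host gene, rose from 15.4 ± 0.228 to 17.4 ± 1.57 FPKM (log2 fold change 0.17, adjusted p = 0.0362). Its call was lost with DESeq2, with the 3 limma fits on FPKM, and when any of DMSO replicates 1, 2 and 3 or compound E replicate 2 was left out.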
